A study of Drosophila melanogaster with 2 samples.

Results

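The u-shaped (ush) and cabut (cbt) genes lie in 1 locus of chromosome 2L, and the binding of the transcription factor dimmed (dimm) was described there by chromatin immunoprecipitation and sequencing (ChIP-seq). The members were all peak summits in the annotated spans of the 2 genes or within 1 kb upstream of either. They came from the deposited lists of peaks that passed a threshold, joined by candidates that reached the same threshold value but are missing from the conservative one of those lists. There were 8 such summits, of 1931 candidates at that threshold in the whole series, and 5 of the 8 are among the 1807 peaks of the conservative list. They were chosen by these values, so their presence, positions and signal are given as a description, with no test.

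All samples were whole Drosophila melanogaster embryos, 0 to 24 hours old, of a strain that expressed dimm fused to enhanced green fluorescent protein (eGFP) from a transgene. An anti-GFP antibody was used for the precipitation, and the promoter that drives the transgene is not given in the sources used here. There were 2 biological replicates of 1 group, with nothing to compare them against. Both replicates carry the same fusion, no untagged embryos were used here, and an embryo of this age range mixes all tissues, so the cells in which the locus was bound cannot be told apart.

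The ush gene encodes a zinc finger cofactor of the Friend of GATA family, which acts by binding GATA factors such as Pannier and Serpent. It is known for its part in dorsal closure, in bristle patterning and in blood and heart development. The cbt gene encodes a zinc finger transcription factor of the Krüppel-like (KLF/TIEG) type. It acts in dorsal closure alongside the JNK pathway and responds to dietary sugar through Mondo and bigmax. The dimm protein is a basic helix-loop-helix factor of peptide-secreting neuroendocrine cells, and proteins of this class bind E-boxes, short sites spelled CANNTG.

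In build dm6, ush (FBgn0003963) spans chr2L:476220-540560 on the plus strand, 64.3 kb. It has 4 annotated start sites. The first, at 476220, serves 2 transcripts, the second lies 14.6 kb downstream at 490835, and the other two lie at 523466 and 523736, which is 47.2 and 47.5 kb downstream of the first. The cbt gene (FBgn0043364) spans chr2L:476446-479688 on the minus strand, 3.24 kb with 3 transcripts, all started at 479688. It lies wholly inside the first intron of ush and is read in the opposite direction, so the region upstream of cbt is also ush intron. The second ush start is shared with a long non-coding RNA, lncRNA:CR46258 (490835 to 492649), and a second one, lncRNA:CR46259 (500873 to 502236), lies in a ush intron on the minus strand.

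The summits are named P1 to P8 in order along chromosome 2L. The strongest of them, P3, and its neighbours P1 and P2 carry the missing signal upstream of cbt, while P4 is the listed summit closest to them and P8 is the strongest listed one. Their bases are shown because the results turn on these 5 sites. They were read from the Release 6 genome (dm6 coordinates, plus strand, 5′ to 3′), as the summit base with 100 bp to either side, or the whole 251 bp of the peak for P3. Capitals mark E-boxes. The windows are P1 at chr2L:479929-480129, P2 at chr2L:480552-480752, P3 at chr2L:480967-481217, P4 at chr2L:485785-485985 and P8 at chr2L:521964-522164. None of them overlaps an annotated UTR.
P1: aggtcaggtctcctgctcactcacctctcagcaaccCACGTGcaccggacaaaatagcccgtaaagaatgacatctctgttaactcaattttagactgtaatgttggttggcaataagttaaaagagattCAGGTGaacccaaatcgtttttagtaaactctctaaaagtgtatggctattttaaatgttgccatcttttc
P2: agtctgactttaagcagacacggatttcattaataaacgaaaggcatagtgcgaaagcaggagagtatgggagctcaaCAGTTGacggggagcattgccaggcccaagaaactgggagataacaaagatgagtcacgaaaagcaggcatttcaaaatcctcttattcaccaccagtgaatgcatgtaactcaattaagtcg
P3: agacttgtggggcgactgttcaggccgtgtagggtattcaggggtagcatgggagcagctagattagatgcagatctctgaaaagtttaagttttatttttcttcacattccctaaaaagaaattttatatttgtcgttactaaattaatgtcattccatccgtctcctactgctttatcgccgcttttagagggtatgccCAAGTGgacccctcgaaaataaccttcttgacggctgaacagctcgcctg
P4: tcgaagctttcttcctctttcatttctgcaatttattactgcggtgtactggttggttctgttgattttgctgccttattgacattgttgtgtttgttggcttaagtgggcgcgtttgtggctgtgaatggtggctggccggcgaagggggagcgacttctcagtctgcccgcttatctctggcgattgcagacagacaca
P8: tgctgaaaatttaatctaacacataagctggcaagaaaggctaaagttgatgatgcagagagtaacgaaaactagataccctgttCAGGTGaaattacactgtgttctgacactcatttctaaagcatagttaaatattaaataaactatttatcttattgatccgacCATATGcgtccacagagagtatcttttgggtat

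P1 held the letters CACGTG, 62 bp from its summit, and CAGGTG, 32 bp from it. P8 held CAGGTG 13 bp from its summit and CATATG 70 bp from it. In the windows shown, P2 and P3 each held 1 E-box, CAGTTG 20 bp and CAAGTG 68 bp from the summit. The window shown for P4 holds none. Beyond these windows, the whole peaks of P2 and P4 also held CAATTG, 104 bp from the summit, and CAAGTG, 139 bp from it.

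Every signal below is the authors' own deposited value for a peak and is used within a list only, since its normalization is not given in the sources used here. The threshold is a −log10 of at least 2 of the IDR (irreproducible discovery rate), which is low for a peak that ranks high in both of the sets of peaks compared. The conservative list, made from both replicates together, holds 1807 peaks with a median signal of 89.9, and the ranked list behind it holds 142768 candidates. The peak files hold no read depth, which is therefore unknown. Of the candidates that reached the threshold on the main chromosomes, 78 of 1848 (4.22%) are missing from the conservative list, and 3 of these 78 lie here.

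The highest signal of the locus is not in any thresholded list. P3, with its summit at 481102, had a signal of 816 and a −log10 IDR of 5.0, the highest value in its list, which 92 candidates share. It ranked 5 by signal among the 1931 candidates at the threshold, between a peak of 885 and one of 813. The summit lies 1414 bp upstream of the cbt start, just outside the 1 kb window, and 4.88 kb downstream of the first ush start, in a ush intron. Of the 10 strongest candidates of the series it is the only one that the conservative list lacks, and it is the strongest of all that the list lacks. The next strongest, at 677, lay near Lk6, a protein kinase gene, and the one after it, at 446, near larp, which encodes a La-related RNA-binding protein, both on 3R. After them came one of 438 on X and one of 351 on 2R. These lay farther from any gene start, 7900 bp from that of 28SrRNA-Psi:CR45859 and 15502 bp from that of CG46302. Among the strongest 20, 50 and 100 candidates, 2, 4 and 9 were missing from the list. Of all 1931 candidates at the threshold, on the main chromosomes or elsewhere, 124 (6.42%) were missing.

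Each replicate held P3 on its own. Replicate 1 gave it a signal of 413, which ranked 5 of that replicate's 108727 candidates, and replicate 2 gave it 422, which ranked 4 of 115451. The −log10 IDR was 5.0 in both. In neither replicate's own thresholded list, of 1238 and 1135 peaks, was P3 present.

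P1 is the one summit in the cbt promoter, here within 500 bp of the start. It lies at 480029, 341 bp upstream of the cbt start, with a signal of 197 and a −log10 IDR of 4.26, which ranked 224 among the candidates at the threshold. Replicate 1 gave it 103 and replicate 2 gave it 102, ranks of 229 and 223 in their own lists, with −log10 IDR of 5.0 and 4.45. Of the peaks in the conservative list, 88.4% had a lower signal than P1, yet none of the 4 thresholded lists holds it.

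P2, at 480652, had the lowest signal of the 8 in the joint list. Among the summits matched in both replicates, it had the widest difference in rank between them. Its signal in the joint list was 49.7 with a −log10 IDR of 2.30, and it lies 964 bp upstream of the cbt start. Replicate 2 gave it 68.1, with a −log10 IDR of 3.84 and rank 490, whereas replicate 1 gave it 25.0, a −log10 IDR of 1.78, under the threshold, and rank 4274. These signals come from different lists and are not compared with each other. Only 2.38% of the listed peaks had a lower signal than P2, and it too is missing from all 4 lists.

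cbt therefore had 0 summits in each of the 4 thresholded lists, and 2 candidates at the threshold, P1 and P2, in the conservative and the other joint ranked list. Replicate 2 alone also had 2 such candidates and replicate 1 had 1. With the upstream window widened to 2 kb, chosen after the data were seen, P3 joined them and made 3. At least 1 summit of the conservative list fell to 1558 of 13968 protein-coding genes (11.2%), so a gene with none is the common case. At least 1 missing candidate fell to 37 genes (0.265%), and at least 2, as at cbt, to 10 genes (0.0716%). Both cbt and ush are among the 10, with P1 and P2 counted for each.

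**Figure D1:**
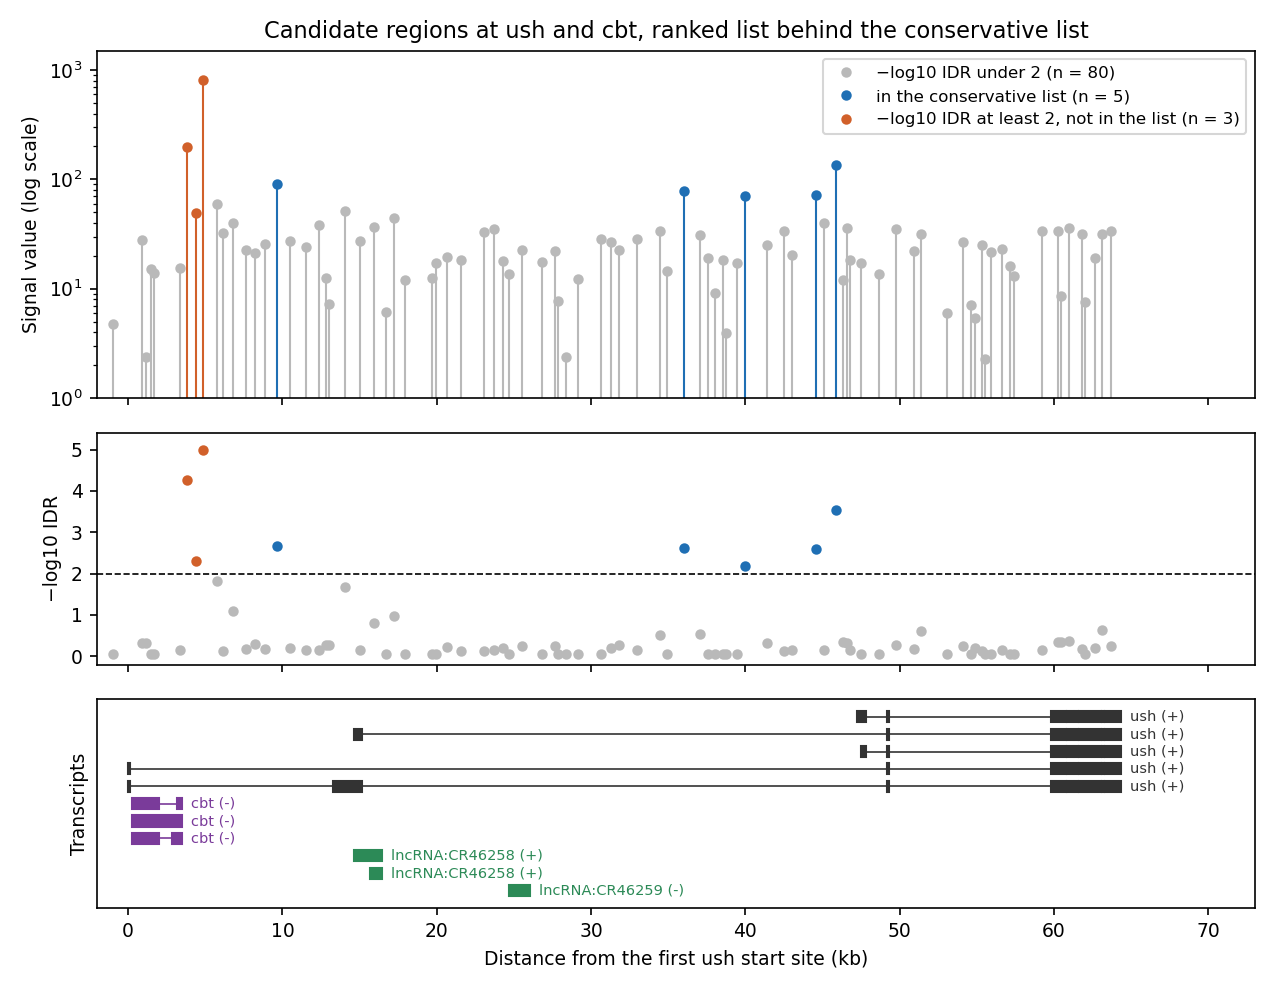
The 88 candidates at ush and cbt, by distance from the first ush start (kb, x axis), with their signal (top, log scale), their −log10 IDR (middle, dashed line at 2) and the transcripts below. The 3 candidates in orange, at 3.81, 4.43 and 4.88 kb, pass the threshold but are missing from the conservative list; the 5 in blue are in it, 4 of them between 36.0 and 45.8 kb.

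The missing candidates near cbt formed 1 run with those at CG4297, which lies beyond the neighbouring gene MED15. Between chr2L:471147 and chr2L:481217, 10.1 kb, 5 candidates reached the threshold and the conservative list held none of them. Besides P1, P2 and P3 these were at CG4297, at 471299 with a signal of 74.0 and at 472485 with 137, the latter also in the 1 kb upstream of MED15, which encodes a Mediator subunit. The last listed summit before the run, 71.4, was 2.31 kb away and the first after it, P4, was 4.67 kb away. A further 8 candidates under the threshold fell inside the run.

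What removed these candidates was not tested. The records deposited with the lists name 1 more source file for each thresholded list than for its ranked list, 4 against 3 for the joint lists and 3 against 2 for each replicate, and what that file holds is not given in the sources used here. A further copy of the sequence elsewhere in the genome, taken as a match of at least 90% identity over at least 80% of the peak, was found for 25 of the 78 missing candidates on the main chromosomes (32.1%) and for 13 of 1770 listed peaks (0.734%). None of P1 to P8 had such a copy.

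The binding listed at ush consisted of 5 summits, all of them in introns. Their signals were 89.8 at P4 (485885), 77.7 at P5 (512209), 70.1 at P6 (516204), 72.0 at P7 (520784) and 135 at P8 (522064). P8 alone stood above the median of the list, 89.9, and 75.2% of the listed peaks were lower. P4 lay at the middle of the list, and P5, P6 and P7 in its lower part, with 37.6, 28.6 and 30.5% of listed peaks below them. The same 5 are in the joint list not marked conservative, which has 1942 peaks, and the same 3 are missing from it.

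By position, 4 of the 5 gathered ahead of the third ush start. P5, P6, P7 and P8 lay 11257, 7262, 2682 and 1402 bp upstream of 523466. They were closer to it than to the first start, which is 36.0 to 45.8 kb away. For P5 the nearest annotated start of any gene was that of lncRNA:CR46259, at 9973 bp. P4 stood apart, 9.66 kb downstream of the first start and 4950 bp upstream of the second. No listed summit fell within 500 bp of any ush start. The first segment, up to the second start (15.6 kb), held 22 candidates, of which 4 reached the threshold and 1 is listed. The middle segment, from the second to the third start (32.6 kb), held 42, of which 4 reached it and all 4 are listed. From the third start to the end of the gene (17.1 kb) there were 24 candidates, none of which reached the threshold, with a highest signal of 35.6. The median signal of all candidates in the 3 segments was 26.4, 21.2 and 21.9, highest in the first. In the replicates' own ranked lists it was also highest there, at 16.1, 12.2 and 9.41 in replicate 1 and 16.6, 14.0 and 13.2 in replicate 2.

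Neighbouring summits were 623, 450, 4783, 26324, 3995, 4580 and 1280 bp apart, in order from P1 to P8. The largest gap, between P4 and P5, holds the second ush start and both long non-coding RNAs. Between neighbouring listed summits the median gap was 4288 bp. After P8 no further summit was listed in the 18.5 kb left of ush, nor in the 175 kb after its end. The next listed summit, of 93.8, lay nearest to the start of ds, which encodes the cadherin Dachsous, 194 kb from P8.

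The summit just inside the threshold was P6, at a −log10 IDR of 2.18. Just outside it were a candidate at chr2L:481803-482106, with a signal of 59.4 and a −log10 IDR of 1.81, and one at chr2L:490114-490417, with 51.4 and 1.68. The former is the next candidate downstream of P3. Both had a higher signal than P2, which passed.

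**Figure D2:**
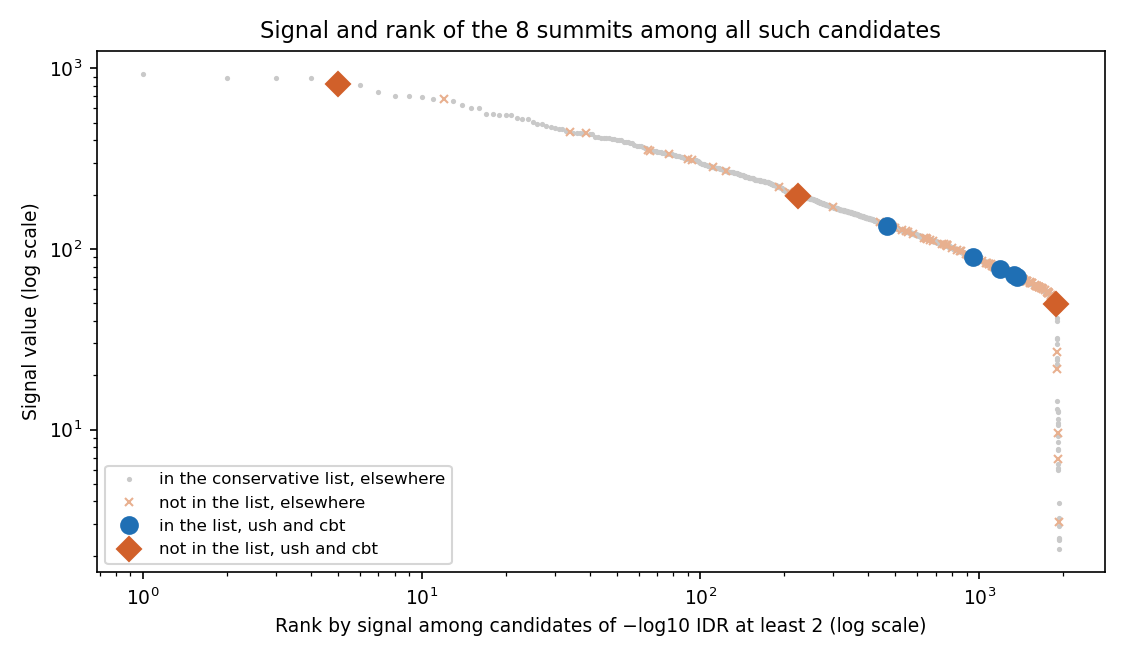
Signal (y axis, log scale) against rank by signal (x axis, log scale) for the 1931 candidates at or above the threshold. Of the 8 summits at ush and cbt, the missing P3 (816) ranks 5, the missing P1 (197) ranks 224 and the listed P8 (135) ranks 468; crosses mark the other candidates missing from the conservative list.

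Replicate support differed among the listed summits. P8 is the only one in both replicates' own thresholded lists. It had 69.8 (rank 475) in replicate 1 and 66.2 (rank 516) in replicate 2, with a −log10 IDR of 4.07 and 3.22. P4 had 38.2 (rank 1396) in replicate 1 and 40.4 (rank 1268) in replicate 2, and P5 had 33.9 (rank 1754) and 43.6 (rank 1120). Both are listed by replicate 2 alone, since their −log10 IDR was 1.70 and 1.42 in replicate 1 against 2.18 and 2.51 in replicate 2.

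P6 is listed by replicate 1 alone, with 36.3 (rank 1523) and a −log10 IDR of 2.14. In replicate 2 no summit lay within 100 bp of it. The nearest candidate there, 111 bp away and overlapping the peak, had 27.2 (rank 3816) and a −log10 IDR of 1.14. P7 is in neither replicate's own list. It had 38.2 (rank 1395) in replicate 1 and 36.1 (rank 1563) in replicate 2, with a −log10 IDR of 1.61 and 0.404. Its −log10 IDR in the joint list was 2.60. The replicates' own lists thus hold 2 and 3 summits at ush, and a further 2 and 3 candidates at the threshold that they lack.

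**Figure D3:**
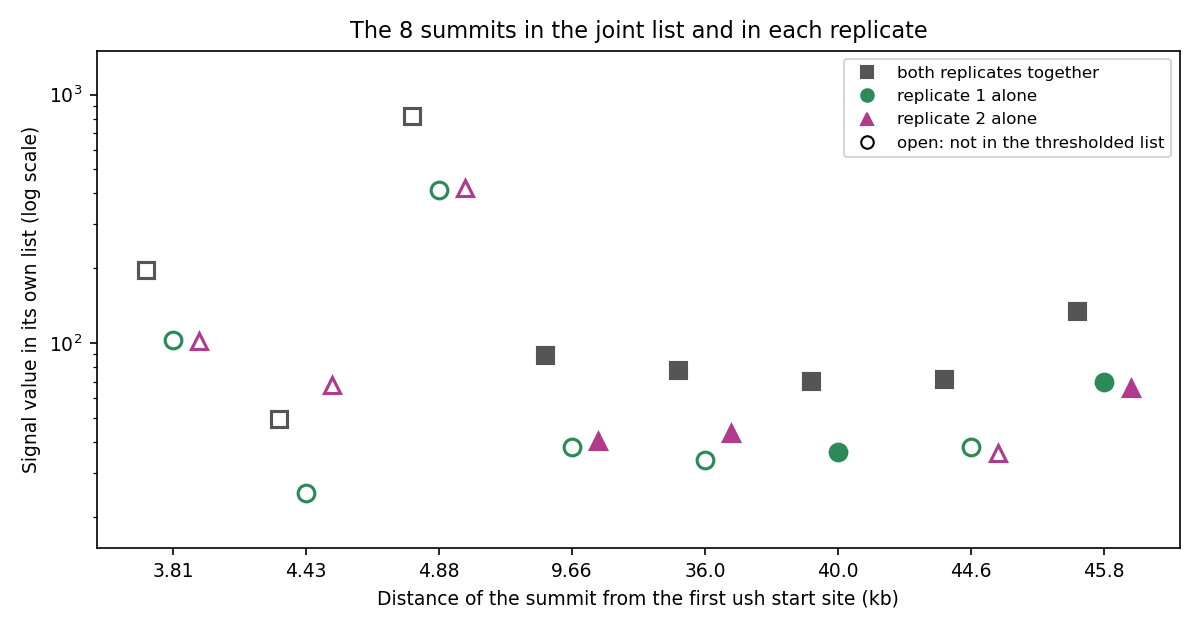
Signal of the 8 summits (y axis, log scale) in the joint list (squares), in replicate 1 (circles) and in replicate 2 (triangles), by distance from the first ush start (kb, not to scale). Open symbols are not in that list after the threshold; the 3 summits upstream of cbt are open throughout, P8 at 45.8 kb is filled throughout, and replicate 2 had no summit within 100 bp of P6 at 40.0 kb.

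Few genes held as many listed summits as ush. At least 5 fell to 11 of 13968 protein-coding genes (0.0788%), ush among them, and at least 1 to 11.2%. A long gene has more room for them: of the 572 genes with 0.5 to 2 times the span of ush, 220 held at least 1 (38.5%) and 8 held at least 5 (1.40%). In the replicates' own lists, at least 2 summits, as at ush in replicate 1, fell to 148 genes (1.06%), and at least 3, as at ush in replicate 2, to 31 (0.222%). Counted over all candidates at the threshold, at least 8, as at ush, fell to 5 genes (0.0358%). A summit was counted for every gene whose span or upstream window held it.

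Genes with more listed summits included kirre (12 summits), an immunoglobulin-family gene of myoblast fusion, Raf (9), a kinase of the Ras pathway, and sbb (8), a nuclear corepressor. The others were CG1677 (8), shn (7), a zinc finger factor of Dpp signalling, CHES-1-like (6), a forkhead factor, Hr4 (6), a nuclear receptor, and CG32264 (6). As many as at ush were held by dnc, a cAMP phosphodiesterase, over 167 kb, and by pigs over 53.0 kb. The density at ush was 7.65 listed summits per 100 kb, against 9.27 at pigs, 2.97 at dnc, 8.95 at Hr4 (66.0 kb), 6.24 at CenG1A (63.1 kb, 4 summits) and 6.45 at CG12535 (61.0 kb, 4 summits). Beside these 5 genes of like count or length, the strongest listed summit of ush, 135, was under those of pigs (259), dnc (188), Hr4 (239) and CenG1A (629), and above that of CG12535 (105). Missing candidates numbered 3 at ush, which are members by the way the locus was chosen, and 0 at each of the 5. A count of 0 is the common case, since at least 1 fell to 37 of 13968 protein-coding genes (0.265%).

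Of the 10 genes with at least 2 missing candidates, 4 had 3: Kdm2, a histone demethylase gene, Sin3A, a corepressor, tara, and ush. Kdm2, Sin3A and tara had 0 listed summits, whereas ush had 5. Those with 2 were CG12054, CG4297, Pgk, Pzl, crp and cbt, of which CG4297, Pgk and crp had 1 listed summit each. These genes are not all separate cases. The 2 at cbt, P1 and P2, are also counted among the 3 at ush, and the 2 at CG4297 lie in the same run.

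**Figure D4:**
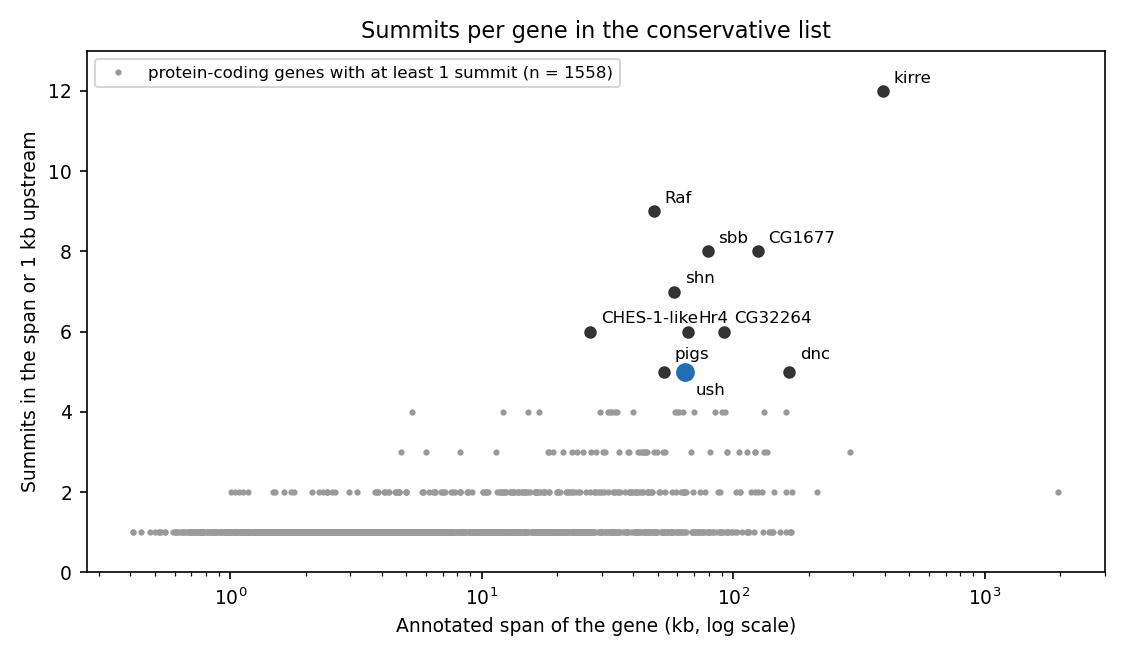
Listed summits per gene (y axis) against the annotated span (kb, log scale, x axis) for the 1558 protein-coding genes with at least 1 summit in the conservative list. The genes with 5 or more are named; ush, in blue, has 5 over 64.3 kb, and 8 genes have more.

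A list of 10 GATA factors, corepressors and other nuclear factors that have been linked to ush had no member bound in the conservative list. It held pnr, srp, grn, GATAe, GATAd, CtBP, Chi, ap, lz and Mi-2, and the count was 0 of 10 against the 11.2% of all protein-coding genes, although the median span of the list, 16.8 kb, is above the 2.16 kb of all protein-coding genes. CtBP, a corepressor, had 1 summit in the joint list not marked conservative, and Mi-2, a chromatin remodeller, had 1 in replicate 2's own list. The median number of summits was 0 in this list, in the 4 lists that follow and over all genes.

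Dorsal closure, in which both ush and cbt act, was covered by 16 genes, of JNK and Dpp signalling apart from zip, a myosin gene. Of the 16, 6 (37.5%) were bound in the conservative list, beside 11.2% of all protein-coding genes. In replicate 1's own list 4 of the 16 were bound, beside 1147 of 13968 protein-coding genes (8.21%), and in replicate 2's own list 5 were, beside 1089 (7.80%). These genes are long, with a median span of 12.4 kb against 2.16 kb for all protein-coding genes. The kinase gene msn had 4 summits, the highest at 147, with 3 in replicate 1's list and 4 in replicate 2's. The BMP ligand gene dpp had 1 summit of 133, its effector Mad 1 of 116, the repressor brk 1 of 89.7, the receptor tkv 1 slightly above that of brk, and puc, the JNK phosphatase, 1 of 65.7. In replicate 1's own list puc and tkv had no summit, and in replicate 2's own list brk had none. The other 10, bsk, hep, Jra, kay, slpr, put, Med, sax, zip and raw, had none.

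Relatives of cbt in the KLF and Sp family were bound in 2 of 8 cases (25.0%), beside 11.2% of all protein-coding genes, with a median span of 3.43 kb. Replicate 1's own list also had 2 of the 8, and replicate 2's had 1. The 2 bound in the conservative list were luna, with 1 summit of 82.7 over 138 kb, and dar1, with 3 summits over 27.1 kb, the highest at 84.3. Both genes are longer than the list's median span. The count at dar1 was 1 in replicate 1's own list, 0 in replicate 2's and 2 in the joint list not marked conservative. Of 4 genes of sugar sensing, to which cbt responds, 1 was bound (25.0%, beside the same 11.2%), with a median span of 6.6 kb. Here bigmax had 1 summit of 59.6 in the conservative list, 1 summit in replicate 1 and none in replicate 2, while Mondo, sug and daw had none in any list. Of 13 blood cell genes, the process in which ush acts with Serpent, 0 were bound in any of the 4 lists, beside 11.2% of all protein-coding genes in the conservative one and with a median span of 13.9 kb, srp and lz, which also stand among the GATA partners, included. No gene of the 5 lists had a missing candidate at the threshold.

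Short motifs were sought on both strands within 50 bp to either side of each of the 8 summits, beside the share of all 1770 conservative summits on the main chromosomes that hold each one in the same window. CANNTG, which takes in each of the E-boxes that follow, was present at P1, P2 and P8, that is at 1 of 5 listed and 2 of 3 missing summits, against 33.6% of all. CACCTG, on the other strand CAGGTG, was present at P1 and P8, against 2.71% of all. CATATG (3.95% of all), CAGCTG (2.99%) and CACGTG (0.565%) were at none of the 8. The letters GATAA, those of the GATA factors with which ush acts, were at P2, 19 bp from the summit, and at P3, 42 bp from it, and at 0 of 5 listed summits, against 21.6% of all.

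GAGAG, the letters of GAGA factor, lay at P2, P7 and P8, against 8.87% of all. CACCC, those of KLF and Sp factors (7.85%), CAGGTAG, those of Zelda (0.395%), and TATCGATA, those of DREF (0.734%), lay at none of the 8. Over the whole peak CACCC lay at P5, P6 and P8, against 25.0% of all, and GAGAG at 6 of the 8, against 33.9%. Within 100 bp to either side GATAA lay at 6 of the 8 (P2, P3, P4, P5, P7 and P8), against 37.5% of all, and CANNTG at 5 of 8, against 59.5%. The wider window also took in the CACGTG of P1 (1.69% of all) and the CATATG of P8 (7.29%). With 8 summits chosen by their signal these counts are a description, and a match of letters is not a binding site.

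The base composition of the 8 peaks ran from 34.5% GC at P7 and 36.2% at P8 to 49.0% at P4. P1, P2 and P3 had 44.1, 41.8 and 43.4%. The peaks spanned 304 bp except P3, with 251 bp.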

How the data were processed

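Both replicates were analysed from 8 peak lists on build dm6, which the authors deposited as signal values per peak, with the −log10 of the global IDR deposited in the ranked lists. Aligner, peak caller and signal normalization are not given in the sources, and no control library was used here. Sonicated chromatin was 200 to 800 in size. The files hold no read depth, so precision could not be taken from it.

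Coordinates are 1-based, genes came from Ensembl release 115 (BDGP 6.54) and bases from the Release 6 genome, and 99.8% of 30618 annotated start codons read ATG in it. A replicate's candidate was matched to a summit within 100 bp. Genome copies were sought with BLAST+ 2.17.0, and tables were made with Python 3.11.15 and pandas 2.3.3. The counting steps were tested on simulated data.

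The members, gene lists and motifs were chosen with earlier results of these data known. Named genes are ush, cbt, genes overlapping or between them, the 10 with the most summits, the 5 closest to ush by summits and span, bound members of the gene lists, and genes at summits beside the threshold. Neighbours of the locus, genes near the strongest missing candidates, genes with at least 2 missing candidates and ds were named after their values were seen. Summit counts at ush and cbt were repeated in each replicate's own lists and under other windows and thresholds, and motif counts in wider windows. The design planned to take replicate values from the joint ranked list; each replicate's own ranked list was used instead.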

Additional observations from a re-analysis of the deposited data

How the results depend on the processing

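The 5 summits at ush were also found in the joint list not marked conservative, with the gene's span alone, with 2 kb upstream, with peaks that overlap the region and with overlapping peaks merged. Single replicates gave 2 to 3 summits at ush, and a −log10 IDR of at least 3 left 1. Counting every candidate at the threshold gave 8, also with 2 kb upstream (added after seeing the data). At cbt, 0 rose to 2 with every candidate and to 3 with 2 kb upstream as well (added after seeing the data), and was 0 under the other 8 settings tried. The strongest listed signal at ush was 135 in the conservative list and 66.2 to 69.8 in the replicates' own thresholded lists. Over every candidate it was 816 in the joint list (added after seeing the data), and 413 and 422 in replicates 1 and 2. Signals of different lists are not compared with each other. The median spacing was 5898 to 18094 bp in single replicates. CANNTG was at 3 of the 8 summits within 50 bp, at 5 within 100 bp and at 6 in whole peaks; GATAA was at 2, then 6 and 6. GAGAG went from 3 to 4 and 6, and CACCC from 0 to 0 and 3. The share of genes with as many summits as ush was 1.40% among genes of like span. Beyond settings that take fewer libraries or wider windows, the cause was not tested. Ranks stand beside the replicate signals of the 8 summits above. With 2 replicates in 1 group, unknown depth and no control, neither the counting error nor the background at the locus could be measured. No paired analysis was possible because the series has 1 group.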
